A study of Mus musculus with 16 samples.

Results

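The genes described here are the 48 mouse genes of DNA replication licensing and the replication fork, chosen by name from their textbook roles and matched by symbol. All 48 were found in both count tables, among 15386 genes in the RNA-seq table and 13490 in the m6A table, and all 48 passed the filter on low counts in both. They were divided by role into origin recognition and licensing (9 genes), the MCM helicase (7), helicase activation (7), polymerase and primase (9), clamp and clamp loader (6), single-strand binding (3), Okazaki maturation and topoisomerase (3) and fork protection (4).

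*Mettl3* is the catalytic subunit of the enzyme that writes m6A, a methyl mark on adenosines of mRNA. The mice, male and female, had a C57BL/6 background and were 10 to 16 weeks old, and the deficient animals were *Mettl3* fl/fl with EpoR-tdTomato-Cre on a single EpoR allele, a Cre that recombines in erythroid cells and in erythroblastic island macrophages. The genotype of the control mice is not given in the sources used here. CFU-E cells, the colony-forming erythroid progenitors that precede proerythroblasts, were sorted from bone marrow, and RNA-seq libraries came from 3 samples of control CFU-E and 3 of CFU-E with very little *Kit*, labelled *Mettl3* knockout. A further 2 m6A immunoprecipitates (IP) and 2 inputs came from control CFU-E. The RNA-seq groups differed in genotype and in the gate on *Kit*, a receptor of progenitor cells, and the effects of genotype and gate cannot be told apart. In these bulk libraries fewer cells of a kind and less RNA per cell cannot be told apart either.

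Replication starts at origins, where the origin recognition complex (ORC), *Cdc6* and *Cdt1* load the MCM helicase in G1. In S phase the kinase *Cdc7* with its activator *Dbf4*, and then *Cdc45* and GINS, turn the loaded helicase on, polymerase alpha with primase lays down primers, and polymerases epsilon and delta extend the leading and the lagging strand on the *Pcna* clamp that the RFC complex loads. CFU-E cells divide rapidly, and the last divisions of erythroid cells are tied to their maturation. Many of these genes carry E2F sites in their promoters and are transcribed around the start of S phase.

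Counts totaled 17429262 to 21329242 per RNA-seq library and 19421059 to 37142742 per m6A library, and the 48 genes took 1.25% to 1.28% of the counts in the control and 1.45% to 1.46% in the Kit-low libraries. *Mettl3*, the targeted gene, was at 115, 123 and 129.8 CPM (counts normalized to the depth of the library) in control CFU-E and at 117, 127 and 108 CPM in CFU-E whose label gives *Mettl3* knockout and low *Kit*, so the groups overlapped. The study reports that *Mettl3* mRNA, measured by qRT-PCR, and its protein were absent from erythroid cells of the deficient mice. Gene counts do not show from which exons reads came, and every direction below rests on the labels. These libraries are called Kit-low libraries in what follows, and their *Kit* level was 55.2 ± 12.4 CPM against 598 ± 47.1 CPM in control (SD, n = 3). Of 12 late erythroid markers, 11 were higher in the Kit-low libraries, with a sum of 1962 to 2168 CPM in control and 3950.3 to 4441 CPM in Kit-low libraries. Of 8 CFU-E markers 4 were higher and 1, *Kit*, was lower. Macrophage markers summed to 22.6 to 27.5 CPM in control and 12.6 to 16.01 CPM in Kit-low libraries, granulocyte markers to 25.8 to 39.2 and 16.1 to 24.8 CPM, and early progenitor markers to 184 to 204 and 25.2 to 27.9 CPM. Of 10 macrophage markers 9 were listed, 6 were abundant enough to be tested and 2 of these were lower. Megakaryocyte markers summed to 13.1 to 20.4 and 20.0 to 25.9 CPM, and markers of lymphocytes and of mast cells and basophils to at most 3.26 and 3.89 CPM in any library. The macrophage marker *Adgre1* was at most 0.115 CPM in any control library and at 0 CPM in each Kit-low library. The part of these markers in the results below was not tested.

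The promoters of the set carry E2F-type motifs far more often than promoters at large. RefSeq windows from 250 bases before to 50 bases after a RefSeq start (GRCm38.p6) were at hand for 39 of the 48 genes, and were searched on both strands for TTTCGCGC, TTTGGCGC, TTTCCCGC and TTTGCCGC. Some genes, such as *Lig1*, had several windows for different starts, and a match in any of them was counted. At least 1 match was found in 16 of the 39 genes (41.0%), against 704 of all 27025 genes with a window (2.6%) and 429 of 9175 genes tested in the RNA-seq (4.68%). The CCAAT box, searched as CCAAT, was found in 59.0% of the 39 and 41.1% of all genes, and the cell cycle homology element, searched as TTTGAA, in 20.5% and 20.2%. A match is a run of letters and was not tested as a binding site. By the direction of their RNA, 5 of 10 genes that were higher in the Kit-low libraries held an E2F-type match, as did 3 of 7 that were lower and 8 of 22 without a call, so the motif was present in genes of both directions.

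The 30 bases around the match are shown for the 8 genes that had a match and passed the test in the RNA-seq (5 higher, then 3 lower), each read along its gene's own strand with the match in capitals.
*Orc1*, chr4:108579416-108579445, plus strand: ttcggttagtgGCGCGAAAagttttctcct
*Cdc6*, chr11:98908002-98908031, plus strand: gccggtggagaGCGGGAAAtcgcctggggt
Cdt1, chr8:122568035-122568064, plus strand: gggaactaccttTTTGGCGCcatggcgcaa
*Lig1*, chr7:13278841-13278870, plus strand: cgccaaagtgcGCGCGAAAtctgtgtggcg
*Clspn*, chr4:126556990-126557019, plus strand: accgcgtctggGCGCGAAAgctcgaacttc
*Orc3*, chr4:34614965-34614994, minus strand: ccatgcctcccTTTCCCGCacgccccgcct
*Pola1*, chrX:93632275-93632304, minus strand: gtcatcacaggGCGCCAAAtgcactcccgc
Pold1, chr7:44548766-44548795, minus strand: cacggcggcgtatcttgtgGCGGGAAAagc

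Of the 5 genes that changed at least 1.5-fold, 4 had a window (*Gins1* had none), and among these *Cdc6* was the 1 with a match. That match is on the strand opposite to that of TTTCCCGC and starts 138 bases before the RefSeq start. The *Cdc6* window lies inside the whole gene span given below, so that span begins before this start. The whole *Cdc6* window, with the match in capitals, is set below beside that of *Orc5*, the gene with the largest fall, whose window held no match.
Cdc6, chr11:98907901-98908200, plus strand: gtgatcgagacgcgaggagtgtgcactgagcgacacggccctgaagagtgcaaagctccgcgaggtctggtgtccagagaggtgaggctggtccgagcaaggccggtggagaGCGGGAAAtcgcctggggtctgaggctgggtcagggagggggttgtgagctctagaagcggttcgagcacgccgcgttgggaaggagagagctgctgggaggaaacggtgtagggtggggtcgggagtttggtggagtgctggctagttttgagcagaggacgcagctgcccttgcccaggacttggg
Orc5, chr5:22550289-22550588, minus strand: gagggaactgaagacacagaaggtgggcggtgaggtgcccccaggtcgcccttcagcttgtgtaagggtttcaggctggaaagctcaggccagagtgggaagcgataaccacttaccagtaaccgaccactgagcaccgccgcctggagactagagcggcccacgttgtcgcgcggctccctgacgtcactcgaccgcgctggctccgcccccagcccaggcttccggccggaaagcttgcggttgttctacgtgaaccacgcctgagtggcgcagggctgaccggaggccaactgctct

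Of the 48 genes, more were higher in the Kit-low libraries than lower, with roles and even partners within a complex moving apart. By the quasi-likelihood test of edgeR, adjusted by the Benjamini-Hochberg method, fitted on 11979 genes with a threshold of 0.05, 15 of the 48 genes were higher (31.2%, against 17.6% of all genes tested) and 7 were lower (14.6%, against 16.9%). At a fold of at least 1.5 the rise passed in 4 (8.33%, against 12.1% of all genes) and the fall in 1 (2.08%, against 9.83%). At an adjusted p under 0.01, 8 were higher and 6 lower. The share of all genes at this threshold is not given here, so these counts have no background beside them. The median log2 fold change was 0.13, beside 0.0080 for all genes tested, and 32 of 48 values were above 0 (66.7%, against 50.6%). All 3 Kit-low libraries were above all 3 control libraries for 23 genes (47.9%, against 23.5%) and below them for 8 (16.7%, against 24%). The summed level of the 48 was 12479.8 to 13361 CPM in control and 14101 to 14625 CPM in Kit-low libraries, a ratio of the means of 1.11. *Cdc6*, *Dbf4*, *Fen1*, *Pcna* and *Pole* were picked by the study from these same libraries and are not independent evidence of a rise. Without these 5 the median was 0.094 and the ratio of the summed levels was 1.04. Of the 43 genes left, 11 were higher and 7 lower (all genes tested, 17.6% and 16.9%).

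**Figure D1:**
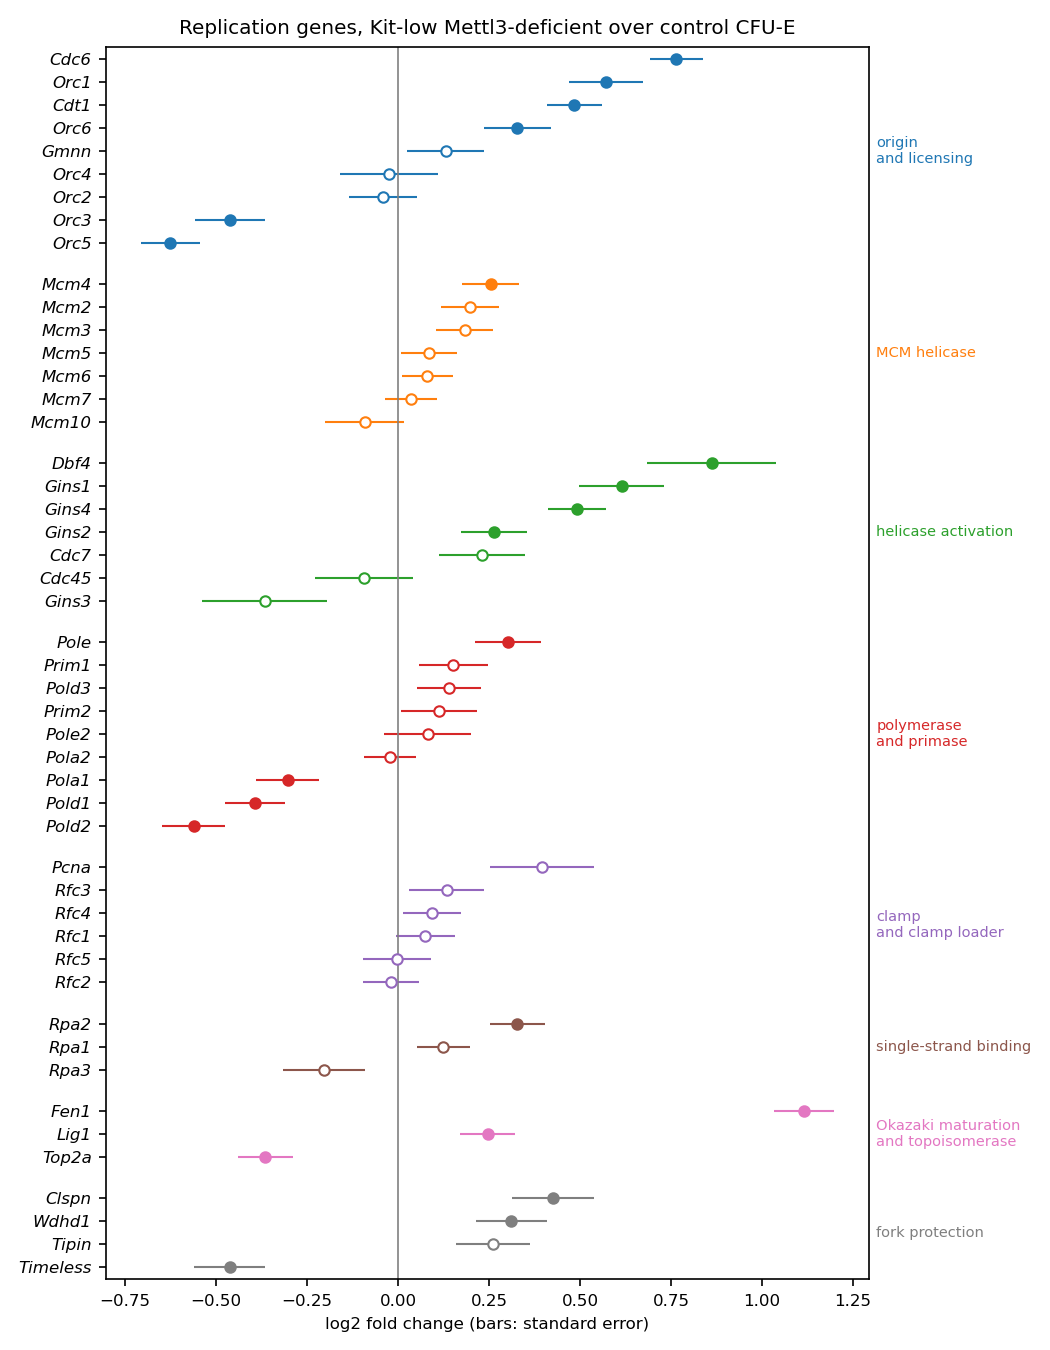
Log2 fold change of each of the 48 genes, Kit-low over control libraries, ordered within its role (x axis, log2 units; bars, standard error; filled points, adjusted p under 0.05; 3 libraries a group). Every role but the clamp and clamp loader holds filled points, and 4 of the 8 roles hold filled points on both sides of 0.

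The 5 genes that changed by at least 1.5-fold lie on 4 chromosomes (GRCm38, GENCODE M21, whole gene spans). *Fen1* is at chr19:10199132-10204169, minus strand, *Cdc6* at chr11:98907801-98923940, plus strand, and *Gins1* at chr2:150905400-150931280, plus strand. *Dbf4* at chr5:8396973-8422716, minus strand and *Orc5* at chr5:22486485-22550429, minus strand share a chromosome and had opposite directions.

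The loading factors *Cdc6* and *Cdt1* rose, while ORC subunits moved in both directions. *Cdc6*, the ATPase that joins ORC at the origin and recruits the helicase, was at 564, 579 and 614 CPM in control and 996, 947 and 1043 CPM in Kit-low libraries. Every Kit-low library lay well above every control library (log2 fold change 0.76, standard error 0.073, adjusted p = 4.3e-05). *Cdt1*, which carries the MCM ring to the origin, was at 254, 273 and 287 CPM in control and 387, 373 and 378 CPM in Kit-low libraries. It too was higher in the Kit-low libraries with no overlap (log2 fold change 0.48, standard error 0.076, adjusted p = 8.5e-04). *Gmnn* encodes geminin, the inhibitor that binds *Cdt1* outside G1, and was at 68.7, 71.9 and 60.2 CPM in control and 70.0, 78.3 and 71.5 CPM in Kit-low libraries. These overlapped (log2 fold change 0.13, standard error 0.11, adjusted p = 0.39).

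*Orc1*, the ORC subunit whose level oscillates through the cell cycle, was at 88.0, 75.8 and 93.8 CPM in control and 126, 124 and 133 CPM in Kit-low libraries. The lowest Kit-low library exceeded the highest control library (log2 fold change 0.57, standard error 0.10, adjusted p = 0.0018). *Orc6*, the smallest subunit, rose less, from 89.5 ± 4.16 to 112 ± 6.72 CPM (SD, n = 3) (log2 fold change 0.33, standard error 0.092, adjusted p = 0.020). Without control replicate 2 or without control replicate 3 *Orc6* missed the threshold. *Orc5*, a core subunit of the same complex, was at 326, 325 and 345 CPM in control and 206, 234 and 205 CPM in Kit-low libraries. It was the 1 gene of the set that fell by at least 1.5-fold (log2 fold change -0.63, standard error 0.081, adjusted p = 2.8e-04). *Orc3*, another core subunit, fell as well, from 169.5 ± 14.4 to 123 ± 8.33 CPM (SD, n = 3), with every Kit-low library below every control library (log2 fold change -0.46, standard error 0.095, adjusted p = 0.0041). *Orc2* and *Orc4* overlapped between the groups, with log2 fold changes of -0.042 and -0.025. The complex therefore held 2 subunits that rose, 2 that fell and 2 that did not pass the test (all genes tested, 17.6% higher and 16.9% lower). The log2 ratio of *Orc1* to *Orc5* counts within a library was -1.89, -2.10 and -1.88 in control and -0.71, -0.91 and -0.63 in Kit-low libraries.

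**Figure D2:**
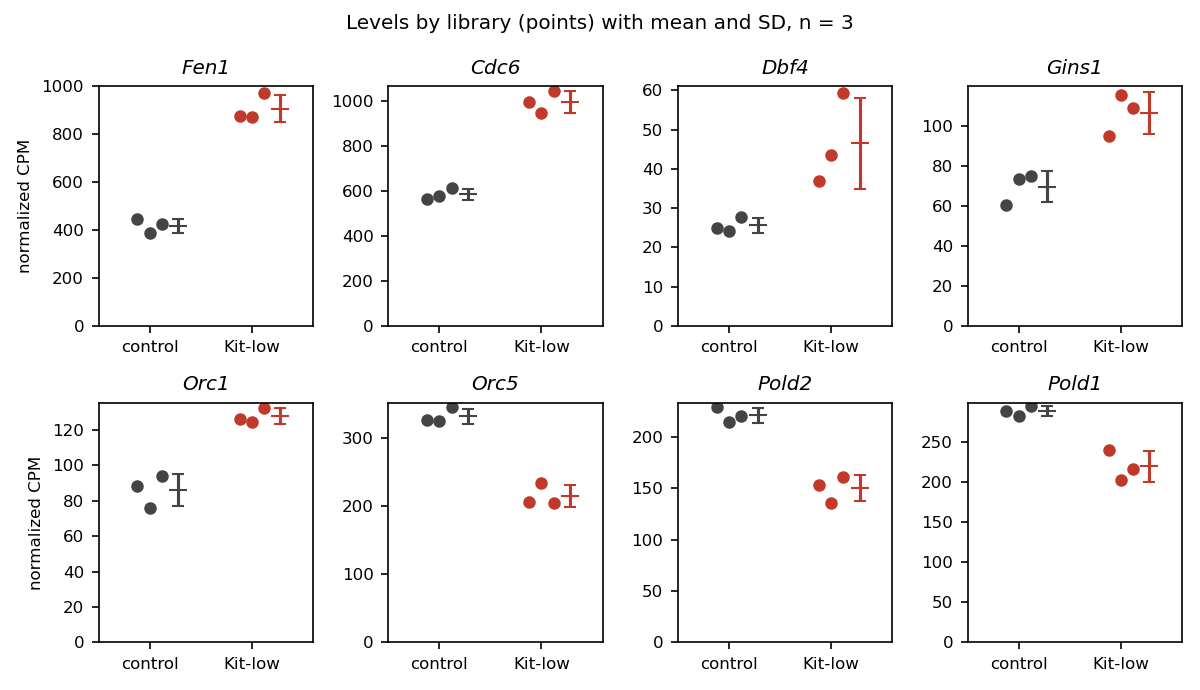
Normalized CPM in each library (points) with the mean and SD beside them (n = 3), for 8 genes that passed the test, on linear axes from 0. *Fen1*, *Cdc6*, *Dbf4*, *Gins1* and *Orc1* lie higher in all Kit-low libraries, and *Orc5*, *Pold2* and *Pold1* lower, with no overlap in any of the 8.

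Of the 6 subunits of the MCM2-7 ring and *Mcm10*, which helps fire the loaded ring, *Mcm4* alone passed the test (all genes tested, 17.6% higher and 16.9% lower). *Mcm4* was at 242, 241 and 253 CPM in control and 270.4, 299.5 and 308 CPM in Kit-low libraries, with no overlap between groups (log2 fold change 0.25, standard error 0.078, adjusted p = 0.030). Its call was lost with the upper-quartile scaling, with no filter on low counts, without any 1 of the 3 control replicates and without Kit-low replicate 3. *Mcm2* and *Mcm3* were also higher in every Kit-low library, at 1056, 917 and 1039 CPM in control and 1119, 1114 and 1222 CPM in Kit-low libraries for *Mcm2* (log2 fold change 0.20, standard error 0.08, adjusted p = 0.084). *Mcm3* was at 807, 769.7 and 884 CPM in control and 912, 894 and 987 CPM in Kit-low libraries (log2 fold change 0.18, standard error 0.079, adjusted p = 0.10). *Mcm5*, *Mcm6*, *Mcm7* and *Mcm10* overlapped between groups, with log2 fold changes of 0.085, 0.08, 0.036 and -0.091. The summed level of the 7 genes was 4809.8 to 5307 CPM in control and 5348 to 5735 CPM in Kit-low libraries.

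Genes of helicase activation rose in 4 of 7 cases and fell in 0 (all genes tested, 17.6% and 16.9%). Among the 4, *Dbf4* was picked by the study from these libraries and the call of *Gins2* is uncertain, as given below. Their summed level went from 425 to 447 CPM in control to 541 to 597 CPM in Kit-low libraries, a ratio of the means of 1.32. *Dbf4*, the regulatory subunit of the *Cdc7* kinase, was low in abundance, at 25.0, 24.1 and 27.7 CPM in control and 36.8, 43.4 and 59.3 CPM in Kit-low libraries. The Kit-low libraries were spread widely but all lay above the control ones (log2 fold change 0.86, standard error 0.18, adjusted p = 0.0040). *Cdc7*, the catalytic subunit, was at 51.6, 56.8 and 46.8 CPM in control and 57.3, 66.7 and 57.8 CPM in Kit-low libraries. It was higher in every Kit-low library without passing the test (log2 fold change 0.23, standard error 0.12, adjusted p = 0.17).

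GINS, the 4-subunit complex that locks the helicase in its active form, was uneven. *Gins1* was at 60.6, 73.5 and 74.8 CPM in control and 95.0, 116 and 109 CPM in Kit-low libraries, with no overlap (log2 fold change 0.61, standard error 0.12, adjusted p = 0.0028). *Gins4* was at 155, 160.3 and 169 CPM in control and 217, 229 and 236 CPM in Kit-low libraries, also with no overlap (log2 fold change 0.49, standard error 0.079, adjusted p = 0.0010). *Gins2* rose by a smaller step, from 74.8 ± 1.90 to 89.8 ± 4.71 CPM (SD, n = 3) (log2 fold change 0.26, standard error 0.092, adjusted p = 0.049). That call is uncertain, since 67.3% of the exonic bases of *Gins2* are shared with *Gse1* on the opposite strand, and *Gse1* itself went from 56.9 ± 4.58 to 83.6 ± 1.49 CPM (SD, n = 3). It was also lost under 8 of 13 alternatives, including the removal of any control replicate. *Gins3* was at 31.1, 29.8 and 30.4 CPM in control and 29.2, 23.0 and 18.5 CPM in Kit-low libraries. All its Kit-low libraries were below all control libraries but it missed the threshold (log2 fold change -0.37, standard error 0.17, adjusted p = 0.13), and without Kit-low replicate 1 it passed, at a log2 fold change of -0.56. *Cdc45*, the third part of the active helicase, overlapped between groups (log2 fold change -0.094, standard error 0.14, adjusted p = 0.64).

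Of the polymerase genes 1 rose and 3 fell (all genes tested, 17.6% and 16.9%). Those that fell included 2 of the 3 listed subunits of polymerase delta. *Pole*, the catalytic subunit of the leading-strand polymerase epsilon, was at 96.4, 88.7 and 95.4 CPM in control and 123, 113 and 110.5 CPM in Kit-low libraries. Its Kit-low libraries were all higher (log2 fold change 0.30, standard error 0.09, adjusted p = 0.026), though the call was lost without any 1 of the 3 control replicates or Kit-low replicate 1. Its partner *Pole2* was at 29.3, 28.7 and 29.2 CPM in control and 29.3, 31.0 and 31.9 CPM in Kit-low libraries and did not pass (log2 fold change 0.081, standard error 0.12, adjusted p = 0.65). *Pold1*, the catalytic subunit of the lagging-strand polymerase delta, was at 289, 283 and 295 CPM in control and 240.4, 203 and 216 CPM in Kit-low libraries. All Kit-low libraries were lower (log2 fold change -0.39, standard error 0.083, adjusted p = 0.0047). *Pold2*, its accessory subunit, was at 229, 214 and 221 CPM in control and 153, 136 and 161 CPM in Kit-low libraries, the larger fall of the pair (log2 fold change -0.56, standard error 0.088, adjusted p = 8.3e-04). *Pold3*, the subunit that binds the clamp, was at 146, 146 and 153 CPM in control and 173, 148 and 169.9 CPM in Kit-low libraries and overlapped (log2 fold change 0.14, standard error 0.088, adjusted p = 0.26).

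*Pola1*, the catalytic subunit of polymerase alpha, was at 170.0, 158 and 182 CPM in control and 131, 143 and 139 CPM in Kit-low libraries, lower in every Kit-low library (log2 fold change -0.30, standard error 0.087, adjusted p = 0.022). It missed the threshold without control replicate 1, control replicate 3 or Kit-low replicate 1. The accessory subunit *Pola2* and the primase subunits *Prim1* and *Prim2* did not pass, with log2 fold changes of -0.022, 0.15 and 0.11. The log2 ratio of *Pole* to *Pold1* counts was -1.58, -1.67 and -1.63 in control and -0.97, -0.85 and -0.97 in Kit-low libraries. The shift between the group means was 0.70 on the log2 scale, and a ratio within a library does not depend on how libraries are scaled. Pairs of genes were chosen with their values in view, so the ratios are descriptions with no test.

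None of the 6 clamp and clamp loader genes passed the test (all genes tested, 17.6% higher and 16.9% lower). *Pcna*, the sliding clamp that holds the polymerase on DNA, was at 24.6, 28.8 and 21.4 CPM in control and 31.6, 33.7 and 33.0 CPM in Kit-low libraries. All Kit-low libraries were higher, by an amount that missed the threshold (log2 fold change 0.40, standard error 0.14, adjusted p = 0.057), and *Pcna* passed it with DESeq2, with library sizes alone and without control replicate 2. The 5 subunits of the RFC clamp loader overlapped between groups, with log2 fold changes from -0.019 for *Rfc2* to 0.13 for *Rfc3*. *Rfc4*, for example, was at 185, 177 and 188 CPM in control and 184, 199.6 and 203 CPM in Kit-low libraries. Of the heterotrimer RPA, which coats single-stranded DNA, *Rpa2* was at 391.8, 359 and 371 CPM in control and 451, 456 and 501 CPM in Kit-low libraries and rose (log2 fold change 0.33, standard error 0.077, adjusted p = 0.0081). *Rpa1* was higher in every Kit-low library without passing (log2 fold change 0.12, standard error 0.072, adjusted p = 0.22), and *Rpa3* overlapped (log2 fold change -0.20, standard error 0.11, adjusted p = 0.19).

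*Fen1*, the flap endonuclease that trims Okazaki fragments, changed most of the 48 genes. It was at 445, 386 and 424 CPM in control and 876, 872 and 972 CPM in Kit-low libraries, 2.17 times as high by the fit (log2 fold change 1.12, standard error 0.083, adjusted p = 9.2e-06). Of its 2422 exonic bases, at most 84.2% are shared with genes on the opposite strand (*Tmem258* and *Gm10143*). That share adds the overlaps with each gene, so any base shared with both was counted again. The strand used in counting is not given in the sources used here. *Tmem258* was at 2.25, 1.43 and 1.89 CPM in control and 5.25, 2.57 and 3.55 CPM in Kit-low libraries, far below *Fen1* in every library. *Gm10143* was not among the genes counted. If strand was not used, reads of shared bases could be counted to either gene, so a low *Tmem258* count does not tell their source. The part of the opposite strand in the *Fen1* change was not tested, and the size of that change is uncertain. *Lig1*, the ligase that seals the trimmed fragments, was at 318, 314 and 351 CPM in control and 400.0, 382 and 384 CPM in Kit-low libraries. It rose by less (log2 fold change 0.25, standard error 0.075, adjusted p = 0.029), and its call was lost with no filter on low counts and without control replicate 1, control replicate 2 or Kit-low replicate 1. *Top2a*, the topoisomerase that separates replicated chromosomes, was at 578, 591 and 627 CPM in control and 493, 465 and 437 CPM in Kit-low libraries and fell (log2 fold change -0.36, standard error 0.076, adjusted p = 0.0044).

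Genes that guard the fork moved apart from each other. *Timeless*, which travels with the fork and couples helicase and polymerase, was at 365, 425 and 392.2 CPM in control and 317, 288 and 253 CPM in Kit-low libraries. All Kit-low libraries were lower (log2 fold change -0.46, standard error 0.098, adjusted p = 0.0049). *Tipin*, its obligate partner, was at 49.2, 49.6 and 47.6 CPM in control and 55.5, 60.5 and 59.2 CPM in Kit-low libraries, higher in each Kit-low library without passing the test (log2 fold change 0.26, standard error 0.10, adjusted p = 0.076). *Clspn* encodes claspin, the mediator that passes the checkpoint signal to Chk1, and was at 70.6, 82.6 and 74.8 CPM in control and 104, 112 and 89.6 CPM in Kit-low libraries. It rose (log2 fold change 0.43, standard error 0.11, adjusted p = 0.015), a call lost without control replicate 1, control replicate 3 or Kit-low replicate 2. *Wdhd1*, which tethers polymerase alpha to the helicase, was at 244, 247 and 282 CPM in control and 331, 346 and 283 CPM in Kit-low libraries. *Wdhd1* also rose (log2 fold change 0.31, standard error 0.097, adjusted p = 0.032), and missed the threshold under 6 of 13 alternatives, among them each of control replicates 1 and 2 and Kit-low replicates 1 and 2 left out. The log2 ratio of *Tipin* to *Timeless* counts was -2.89, -3.10 and -3.04 in control and -2.51, -2.25 and -2.09 in Kit-low libraries.

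Levels per kilobase of the principal transcript allow subunits of a complex to be set beside each other. In the control RNA-seq libraries 4 subunits of MCM2-7 led the 48 genes per kilobase. *Mcm6* was first at 424 ± 22.9 CPM per kb, then *Mcm2* at 298 ± 22.5 and *Mcm3* at 271 ± 19.1 (SD, n = 3). *Mcm2* was above *Mcm3* in each of the 3 control libraries although the ranges overlapped. *Mcm4* stood apart from its partners at 68.4 ± 1.93 CPM per kb in control and 81.5 ± 5.46 in Kit-low libraries, although the ring holds its 6 subunits in equal numbers. ORC spanned 19.7 ± 1.20 CPM per kb for *Orc4* to 158 ± 5.32 for *Orc5*. In the Kit-low libraries *Orc5* was at 102 ± 7.83, above *Orc6* at 87.2 ± 5.22, and *Orc1* at 42.3 ± 1.46 remained below *Orc3* at 53.5 ± 3.62. GINS spanned 12.1 ± 0.254 for *Gins3* to 119.7 ± 5.22 for *Gins4* in control and 9.37 ± 2.14 to 168 ± 7.17 in Kit-low libraries. *Pole* was at 13.1 ± 0.587 CPM per kb and *Pold1* at 83.7 ± 1.81 in control, a lower level for the catalytic subunit of polymerase epsilon than for that of delta. By rank among the 48, *Cdc6* went from position 5 in control to 2 in Kit-low libraries and *Fen1* from 8 to 3, while *Mcm6* was first in both. These orders are those of the RNA-seq protocol and can differ in the m6A inputs, which also came from control CFU-E. There *Mcm6* was at 99.4 and 67.3 CPM, below *Mcm7* at 400.3 and 241 CPM, with transcripts of 2910 and 2962 bases. In control RNA-seq *Mcm7* was at 219 ± 1.05 CPM per kb, below *Mcm6*. Coverage along transcripts was not analysed here, and differences between genes in how well reads were captured were not tested.

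**Figure D3:**
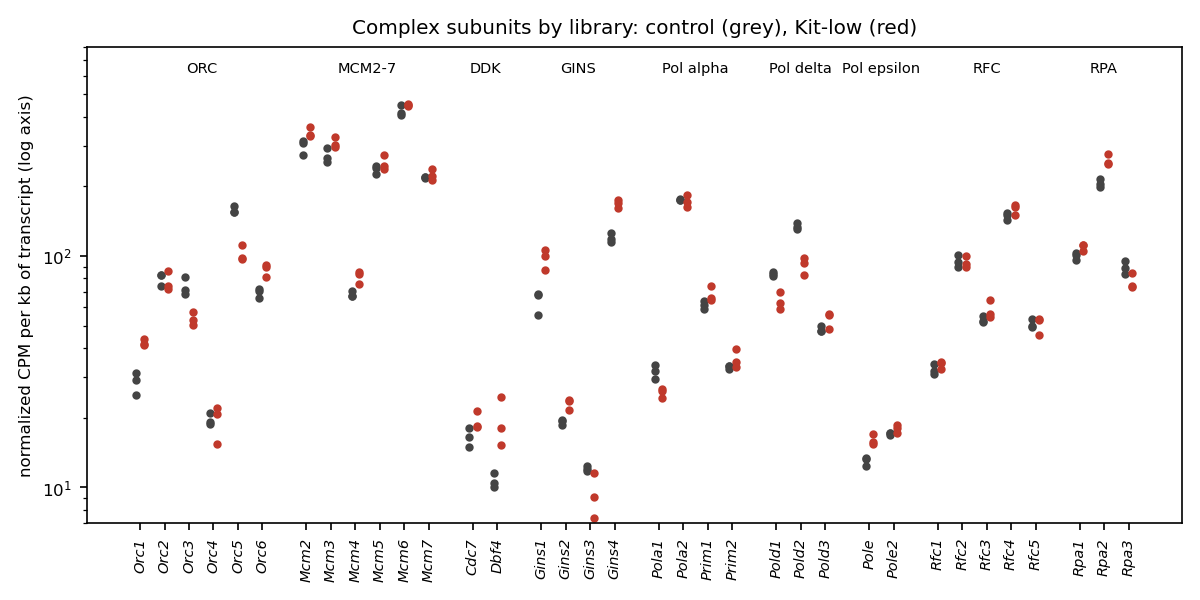
Normalized CPM per kb of the principal transcript (log axis) in each library for subunits of 9 complexes, control in grey and Kit-low in red, 3 libraries each. Within GINS the subunits lie farther apart than the groups do, since *Gins4* and *Gins3* in control were at 119.7 and 12.1 CPM per kb.

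Among 26 other genes of replication, listed for context, 6 were higher and 3 lower (all genes tested, 17.6% and 16.9%), with a median log2 fold change of 0.17. The largest changes were in *Atad5*, which unloads the clamp (log2 fold change 0.86, standard error 0.13, adjusted p = 7.6e-04), in *Chaf1b* and *Chaf1a*, subunits of the chromatin assembly factor that follows the fork (0.69 and 0.68 on the log2 scale), and in *Lrwd1*, an ORC-binding protein. *Atad5*, among the 6 higher, was picked by the study from these same libraries and is not independent evidence of a rise. *Lrwd1* was at 231, 228 and 246 CPM in control and 152, 131 and 136 CPM in Kit-low libraries, lower in every Kit-low library (log2 fold change -0.75, standard error 0.086, adjusted p = 1.3e-04). *Chaf1a* overlapped between groups, at 115, 116 and 113 CPM in control and 112, 200.3 and 239 CPM in Kit-low libraries. *Dtl*, the substrate receptor that targets *Cdt1* for degradation on the clamp, rose as well (log2 fold change 0.55, standard error 0.076, adjusted p = 4.1e-04).

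Of 19 genes of the E2F, RB and DREAM/MuvB families, 5 were higher and 1 lower, against the same shares of all genes. *E2f2*, an activating E2F that erythroid cells express, was at 14.99, 12.1 and 16.6 CPM in control and 86.3, 89.2 and 67.5 CPM in Kit-low libraries. It rose more than any of the 48 replication genes (log2 fold change 2.48, standard error 0.16, adjusted p = 4.9e-06). *Foxm1*, *Mybl2*, *Rb1* and *Tfdp2* also rose, by 0.97, 0.78, 0.76 and 0.61 on the log2 scale. Of 17 mitosis genes 8 were higher and 1 lower (all genes, 17.6% and 16.9%), and their sum was 4386 to 4604 CPM in control and 5458 to 5667 CPM in Kit-low libraries, a ratio of 1.24. The share of cells in S phase was not measured by these libraries, and its part in the changes was not tested.

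In control CFU-E, 7 of the 48 transcripts were higher in m6A IP than in input (14.6%, against 7.9% of 11447 genes tested) and 1 was lower (2.08%, against 7.86%), by the same edgeR test between 2 IP and 2 input libraries. All 8 also passed a fold of 1.5, as did all 904 higher and all 900 lower calls among all genes tested, so that threshold removed no call. The median log2 ratio of IP to input was 0.25, beside 0.056 for all genes tested, and 29 of 48 values were above 0 (60.4%, against 53.2%). Both IP libraries were above both inputs for 22 genes (45.8%, against 32.2%) and below them for 9 (18.8%, against 28.7%). Of the 8 calls 2, those of *Cdc7* and *Mcm4*, were made under all 10 alternatives. By role, 2 of the 7 MCM genes were higher in IP, and 1 gene each of licensing, helicase activation, polymerase and primase, single-strand binding and fork protection. Of the 6 clamp and clamp loader genes 0 passed. With the replicate number added to the fit as a block, 20 genes were higher and 2 lower (all genes, 15.6% and 15.3%). The labels do not say that these numbers pair IP with input, and the calls given here are those without the block.

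**Figure D4:**
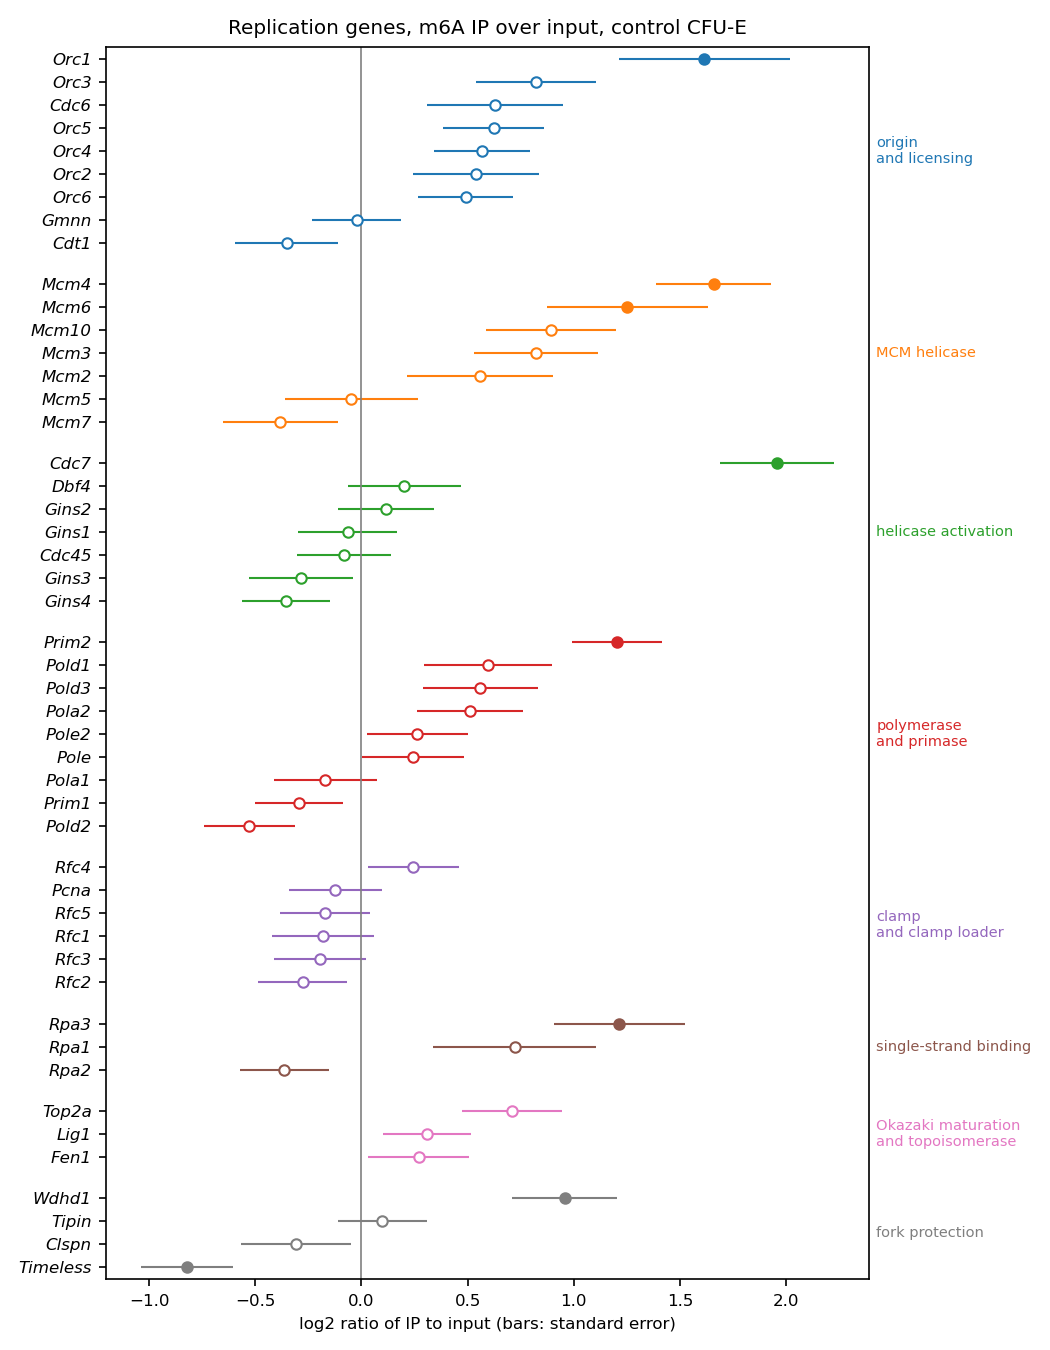
Log2 ratio of m6A IP to input in control CFU-E for each of the 48 genes, ordered within its role (x axis, log2 units; bars, standard error; filled points, adjusted p under 0.05; 2 IP and 2 input libraries). Filled points are *Cdc7*, *Mcm4*, *Orc1*, *Mcm6*, *Rpa3*, *Prim2* and *Wdhd1* above 0 and *Timeless* below 0.

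*Cdc7*, the kinase that fires origins, had the highest ratio, at 10.8 and 10.8 CPM in input and 48.8 and 35.3 CPM in IP. The inputs were alike and both IP libraries were several times as high (log2 ratio 1.96, standard error 0.27, adjusted p = 8.6e-04). *Mcm4* was at 21.2 and 32.6 CPM in input and 93.8 and 75.9 CPM in IP, again with both IP libraries above both inputs (log2 ratio 1.66, standard error 0.27, adjusted p = 0.0026). *Prim2*, the large primase subunit, was at 82.0 and 89.4 CPM in input and 209 and 185 CPM in IP (log2 ratio 1.20, standard error 0.21, adjusted p = 0.0043), a call lost without input replicate 1 alone. *Mcm6* was at 99.4 and 67.3 CPM in input and 285 and 112 CPM in IP, where the IP libraries differed widely (log2 ratio 1.25, standard error 0.38, adjusted p = 0.049), and it was not called without IP replicate 1, without input replicate 1 or without input replicate 2. The same 3 removals ended the call of *Orc1*, which was at 2.07 and 1.74 CPM in input and 7.55 and 4.07 CPM in IP and was the scarcest of the 48 genes in input (log2 ratio 1.61, standard error 0.40, adjusted p = 0.023).

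*Rpa3*, the smallest RPA subunit, was at 57.0 and 112 CPM in input and 171 and 220.0 CPM in IP (log2 ratio 1.21, standard error 0.31, adjusted p = 0.025). Its call was lost without input replicate 1 and without IP replicate 2. *Wdhd1* was at 32.2 and 40.8 CPM in input and 80.1 and 61.3 CPM in IP (log2 ratio 0.96, standard error 0.25, adjusted p = 0.027), a call lost without input replicate 1 and without IP replicate 1. *Timeless* was the 1 gene lower in IP, at 146 and 121 CPM in input and 77.4 and 73.7 CPM in IP. Both IP libraries lay below both inputs (log2 ratio -0.82, standard error 0.22, adjusted p = 0.030), but the call was lost without any 1 of the 4 libraries and with 2 of the other scalings. In MCM the ratio varied between partners, from 1.66 for *Mcm4* to -0.38 for *Mcm7*, which was at 400.3 and 241 CPM in input and 274 and 217 CPM in IP and overlapped (log2 ratio -0.38, standard error 0.27, adjusted p = 0.36). All 6 ORC subunits were higher in both IP libraries than in both inputs (all genes tested, 32.2%), with log2 ratios from 0.49 for *Orc6* to 1.61 for *Orc1*. *Orc1* alone passed the test, which did not pair IP with input. *Orc2* was separated narrowly, at 29.8 and 28.9 CPM in input and 54.9 and 30.2 CPM in IP. Over the 10 alternatives the log2 ratio of *Orc2* ran from 0.021 to 0.90.

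The 3′ untranslated regions of the 7 transcripts that were higher in IP ran from 232 bases in *Rpa3* to 1079 bases in *Cdc7*, with *Mcm4* next at 783 bases. Their median was 361 bases in the principal transcript, against 1556 bases for the 901 genes of the whole table that were higher in IP and had an annotated transcript. Before any call the medians were 502.5 bases over the 48 genes and 959 bases over 11410 genes tested, so that *Cdc7* alone of the 7 exceeded the latter. The longest exon was likewise shorter, at a median of 553 bases in the 7 and 1995 bases in the 901. Across the 48 genes the Spearman correlation of the log2 ratio with the length of the 3′ untranslated region was 0.0096, and across 11410 genes it was 0.22. For GC content it was -0.32 across the 48 and -0.33 across 11410 genes. These are descriptions over genes that share the same 4 libraries. DRACH, the sequence context in which m6A is usually written, had a median density of 20.3 places per kb in the 7 transcripts, 22.0 in the 48, 20.4 in the 901 and 20.1 in all genes tested. The IP ratio is a value for a whole gene and gives no position of the mark.

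The m6A ratio in control cells and the RNA change in the Kit-low libraries were set side by side for the 48 genes. The Spearman correlation over the 48 genes was -0.0098, and over 10743 genes tested in both it was -0.033. The 2 comparisons share no library. Of the 7 genes higher in IP, 3 were higher in the Kit-low libraries (*Mcm4*, *Orc1* and *Wdhd1*), 4 had no call (*Cdc7*, *Mcm6*, *Prim2* and *Rpa3*) and 0 were lower. Beside these small counts, 31.2% of the 48 genes and 17.6% of all genes tested were higher in the Kit-low libraries. The shares that were lower were 14.6% and 16.9%. *Timeless* was lower in both. The 4 genes that rose by at least 1.5-fold had log2 ratios of IP to input of 0.27 for *Fen1*, 0.63 for *Cdc6*, 0.20 for *Dbf4* and -0.065 for *Gins1*, and 0 of them passed that test. *Orc5* was at 114 and 85.9 CPM in input and 173 and 135 CPM in IP and did not pass (log2 ratio 0.62, standard error 0.24, adjusted p = 0.10). *Mettl3*-deficient cells have no m6A library among those used here, and loss of the mark was not analysed here.

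**Figure D5:**
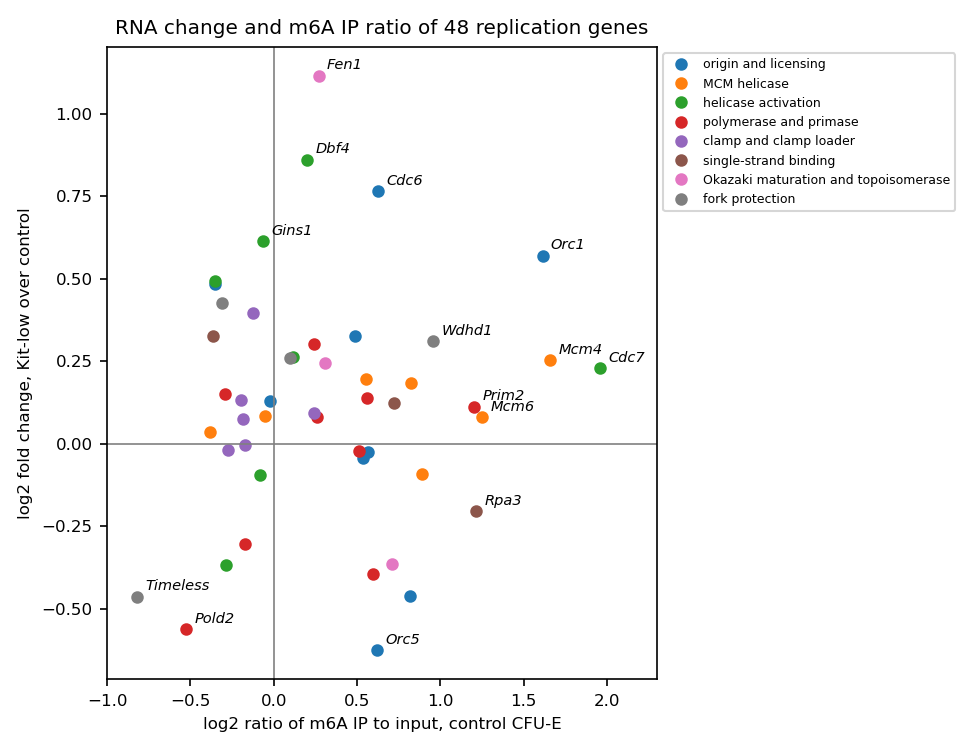
Log2 fold change of the RNA in Kit-low over control libraries (y axis) against the log2 ratio of m6A IP to input in control CFU-E (x axis) for the 48 genes, colored by role. Genes with a call in the m6A comparison or a change beyond 0.5 on the log2 scale are named, and *Fen1*, at 1.12 on the y axis, lies near 0.27 on the x axis.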

How the data were processed

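RNA-seq values were estimated counts per gene: per the labels and the study's methods, the authors trimmed reads with fastp 0.23.4, quantified them with Kallisto 0.48.0 on an mm10 transcriptome, collapsed transcripts to gene level (tximport), and deposited a table of the estimated counts by library, as they did for the m6A libraries (IP and input). The submitters' processing notes also name GRCm39. Whether the m6A counting used the unique molecular identifier of that protocol, and which strand was counted, is not given in the sources used here, and PCR copies are then counted as reads, so precision covers counting error and the spread between libraries. Of 16 samples, 10 were used, and the 6 proerythroblast samples were not analysed here. Columns of no sample numbered 0.

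The counts were rounded, filtered with edgeR's filterByExpr and scaled by TMM in edgeR 4.0.16 (R 4.3.3, limma 3.58.1). The quasi-likelihood test was fitted on all genes with the 2 groups alone, with Benjamini-Hochberg adjustment over all genes tested, in place of the DESeq2 analysis of the study, which was tried as an alternative (DESeq2 1.42.0). CPM values are normalized by TMM, and a gene is called higher or lower at an adjusted p under 0.05. The common biological coefficient of variation was 19.1% in RNA-seq and 21.9% in m6A. Nothing in the labels says that replicates came from separate animals, and p-values measure the spread between these samples. Both tools were tested on simulated data with known fold changes. Transcript lengths, 3′ untranslated regions and antisense overlaps came from GENCODE M21 (GRCm38), and promoter windows from RefSeq GRCm38.p6; entries were not used here for Gins1, Gins2, Gins4, Gmnn, Mcm4, Pole, Prim2, Rfc2 and Tipin. Figures were drawn with matplotlib 3.10.9 from tables made with Python 3.11.15, pandas 2.3.3 and numpy 2.4.6.

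The 48 genes, the other lists and the tests were chosen with earlier results of these data known. Per-library values and tests are given for genes that passed in either comparison, for up to 3 with the largest change in a role and for partners of those that passed; from the other lists, up to 6 that passed are named. The 13 pair ratios and the 30-base windows were chosen after values were seen. Alternatives were DESeq2, its size factors, library sizes alone, upper-quartile scaling, TMM without globin and late erythroid genes (RNA-seq only), no low-count filter, a replicate block, a stricter threshold of 0.01 and each library left out in turn.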

Additional observations from a re-analysis of the deposited data

How the results depend on the processing

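Of the 22 RNA-seq calls among the 48 genes 14 were made under all 13 alternative fits, and of the 8 m6A calls 2 were made under all 10; no gene changed sign while called. In RNA-seq 15 genes were higher and 7 lower, with 4 and 1 at a fold of at least 1.5 and a median log2 fold change of 0.13. With library sizes alone 0 fell by 1.5-fold (Orc5 dropped below that fold) and the median was 0.18, with upper-quartile scaling 2 did and it was 0.089, and with no low-count filter the median was 0.11. At an adjusted p under 0.01, 8 were higher and 6 lower, with the share of all genes at that threshold not given here. Leaving out single libraries gave 9 to 13 genes higher, 6 to 7 lower, 3 to 5 up and 1 to 2 down, with medians of 0.11 to 0.15. Of all genes, 12% to 17.4% were then higher and 11.2% to 16.1% lower. The lowest count of higher genes, 9, came without control replicate 1, and 2 genes were down without control replicate 2.

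In m6A 7 genes were higher and 1 lower, with a median of 0.25. Library sizes alone gave 0 lower and a median of 0.41, and upper-quartile scaling 12 higher, 0 lower and 0.38. These scalings moved the median of all genes from 0.056 to 0.21 and 0.18, and the share of all calls that were higher from 50.1% to 60.6% and 65.8% (members, 87.5% to 100%). At an adjusted p under 0.01, 3 were higher and 0 lower, with the share of all genes at that threshold not given here. Leaving out single libraries left an arm of 1, assumed to vary like the other arm, and gave 2 to 13 higher, 0 lower and medians of 0.10 to 0.36 (all genes, 1.39% to 11.3% higher and 3.61% to 8.04% lower), with 2 without input replicate 1, 4 without IP replicate 1 and 13 without IP replicate 2. The cause of these shifts was not tested.

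The labels number replicates alike in both groups but do not say that numbers pair samples. Same-numbered samples had correlations of deviations of 0.034, -0.017 and -0.072 in RNA-seq and 0.21 in m6A. With the replicate number as a block, 13 genes were higher and 7 lower in RNA-seq (all genes, 16.3% and 15.7%), and 20 higher and 2 lower in m6A (all genes, 15.6% and 15.3%, against 7.9% and 7.86% without it). The m6A calls gained with the block included Orc3, Orc4, Orc5, Orc6 and Cdc6, all higher. Orc1 was at 2.07 and 1.74 CPM in the m6A inputs, where counting error is largest among the called genes.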

Other observations

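In the m6A libraries, genes of 3 related lists were also compared. Of 19 genes of the E2F, RB and DREAM/MuvB families 0 were higher in IP and 4 were lower (against 7.86% of all genes tested), namely *E2f4* at a log2 ratio of -2.34, *E2f5* at -2.004, *E2f1* at -1.86 and *E2f6* at -1.42. *E2f4*, a repressor E2F and the most abundant of the 4, was at 551 and 369.8 CPM in input and 109.8 and 71.8 CPM in IP. Of 26 other replication genes 3 were higher in IP, namely *Mcmbp*, an MCM-binding protein, at a log2 ratio of 1.46, *Atad5* at 1.03 and *Rif1*, a regulator of replication timing, at 0.98, and *Pole4*, a subunit of polymerase epsilon, was lower at -0.91. Of 17 mitosis genes *Kif20a* and *Tpx2*, a kinesin and a spindle assembly factor, were higher, at 1.46 and 0.97. *Kif20a* was at 15.1 and 10.4 CPM in input and at 50.9 and 19.0 CPM in IP, where the libraries differed widely. Of all genes tested, 7.9% were higher and 7.86% lower in IP, and these small counts are descriptions beside those shares.

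Outside the comparisons above, the levels of several of the 48 genes differed greatly between the protocols, which both started from control CFU-E. *Pcna* was at 24.6, 28.8 and 21.4 CPM in the control RNA-seq libraries and at 496 and 580.3 CPM in the m6A inputs. *Orc1* was at 88.0, 75.8 and 93.8 CPM and at 2.07 and 1.74 CPM. The fold of the mean input over the mean RNA-seq level ran from 0.022 for *Orc1* to 21.6 for *Pcna*, and 29 of the 48 genes were lower in input. The libraries came from different protocols, Smart-seq2 for RNA-seq and the low-input method SLIM-seq for m6A, and the reason for these differences was not tested. The mouse annotation holds the pseudogenes *Pcna-ps1* and *Pcna-ps2*, so reads of *Pcna* could be split, and its level is uncertain in both tables.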
